A study of Mus musculus with 6 samples.

Results

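The genes described here are 10 transcripts that mark resident or alternatively activated macrophages: Mrc1, Cd163, Stab1, Lyve1, Folr2, Clec10a, Arg1, Chil3, Retnla and Il10. They were found by gene symbol in a two-colour Agilent array table of 39507 reporters, where Chil3 carried its older symbol Chi3l3. Each of the 10 had 1 reporter, and 9 of them were among the 25750 genes that could be tested. Retnla had no value on any ob/+ array and is given as values without a test. The mice were 9 weeks old, on a genetic background labelled C57BLKS/J, and the tissue is labelled eWAT and adipose. The 3 ob/ob samples came from mice with the obese mutation of the leptin gene on both chromosomes, which become obese. The 3 ob/+ samples came from lean mice with 1 mutated copy. On every array the sample was labelled with Cy5 and a combined ob/+ RNA with Cy3, which the file header describes as a control pool of 3. Whether every sample is a separate animal is not in the labels, and the p-values cover the spread among these samples, which may be technical.

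Macrophages of adipose tissue include cells that live along its vessels and cells that arrive from blood monocytes when the tissue expands. Mrc1, Cd163, Stab1, Lyve1, Folr2 and Clec10a encode surface receptors of tissue macrophages that take up glycoproteins, haemoglobin complexes, modified lipoproteins, hyaluronan, folate or galactose-bearing ligands. Arg1, Chil3 and Retnla encode secreted or metabolic proteins that interleukin-4 and interleukin-13 induce through the transcription factor STAT6 in mouse macrophages. Il10 encodes an anti-inflammatory cytokine that signals through STAT3.

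Lep, the mutated gene, rose by 2.12 ± 0.08 (SE) on the log2 scale (limma adjusted p = 0.000839), and since the ob mutation stops the protein and leaves a transcript, its level does not check the genotype labels. The tissue label was checked against adipocyte genes, of which Adipoq had an ob/+ intensity of 28.6 ± 1.7 (SD, n = 3) and Slc2a4 35.1 ± 2.4. Across reporters, log2 ratios of pairs of ob/ob arrays had correlations of 0.83 to 0.893, and pairs of ob/+ arrays -0.308 to 0.065. The labels state the dyes. Samples set against a pool of their own kind can deviate in opposite directions, and the ratios keep the direction the labels give. Intensities are in the authors' units on a linear scale, and 97.45% of them come in steps of 0.01. Summed intensity of 6 epididymal epithelium genes was 6.36 to 26.6 in ob/+ and 0.73 to 1.0 in ob/ob. Among them 1 gene, Crisp1, passed the test and was lower. Its log2 ratio ranged from -1.40 to 0.91 between the ob/+ arrays. Among the tested members this range was narrowest for Clec10a, -0.12 to 0.02, and widest for Arg1, -0.38 to 0.28. Cd163 had -0.12 to 0.10, Lyve1 -0.26 to 0.20 and Folr2 -0.26 to 0.27. The part of epithelium in the differences between ob/ob and ob/+ was not tested.

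The 10 genes did not move together. Of the tested members, Mrc1, Stab1, Folr2, Clec10a, Chil3 and Il10 were higher in ob/ob, and Cd163 and Lyve1 were lower. Retnla lay far below the ob/+ pool on the ob/ob arrays, and Arg1 did not pass the test. In limma at an adjusted p under 0.05, 6 of 9 tested members were higher and 2 were lower, where 24.6% of all genes tested passed, 12.5% higher and 12.1% lower. In 7 members the 3 ob/ob log2 ratios all lay above the 3 ob/+ ratios and in 2 all lay below, where this held for 20.2% and 19.7% of all genes. For Arg1, counted among the 7, the closest ratios were 0.28 in ob/+ and 0.30 in ob/ob, nearer than rounded intensities can tell apart. The median absolute log2 fold change was 1.11 over the 9 members and 0.21 over all genes tested. After quantile normalization of the log2 ratios, 0 of the 9 passed in limma (7 at an unadjusted p under 0.05), while all 9 kept their direction and 556 of 25750 genes passed in place of 6332. Of 62 called genes in the lists used below, 10 passed after it. In whole tissue, fewer cells of a type and less RNA per cell cannot be told apart.

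**Figure D1:**
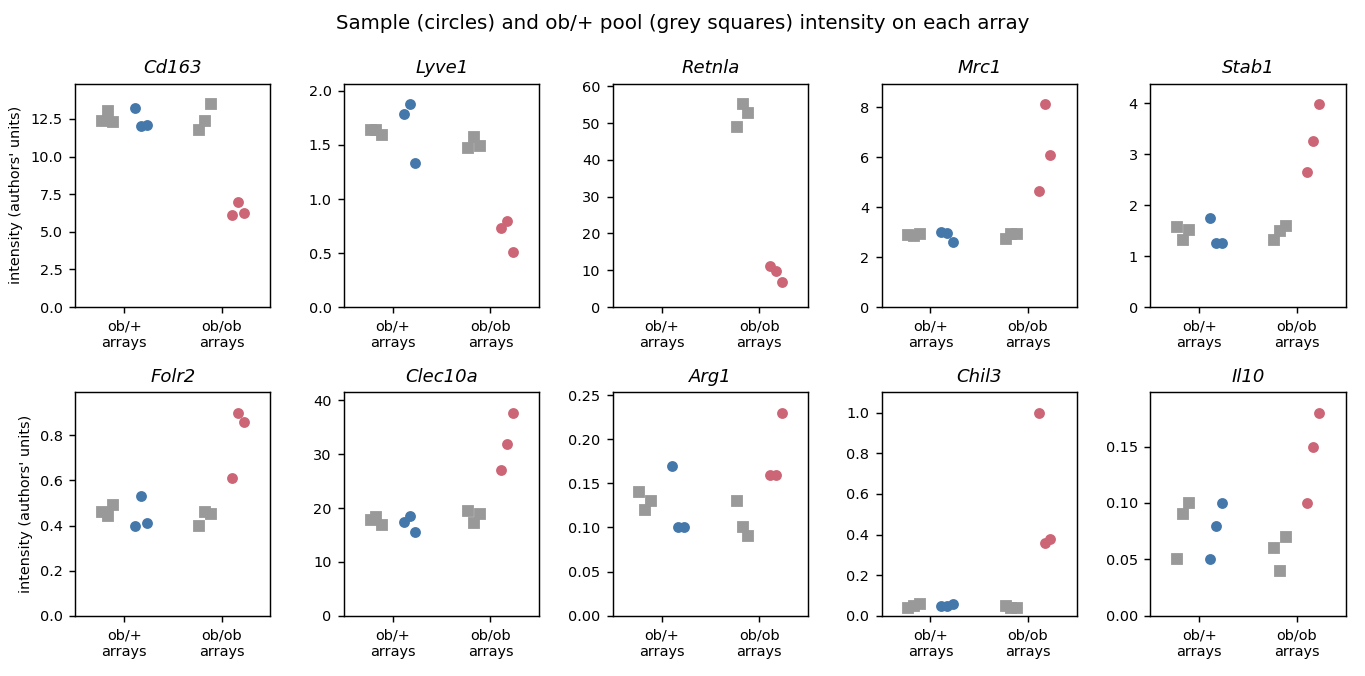
Intensity in the authors' units (vertical axes, linear and starting at 0, a scale per gene) of each sample (circles, blue for ob/+ and red for ob/ob) and of the ob/+ pool on the same array (grey squares), 3 arrays per group. Pool levels of Mrc1 stayed between 2.72 and 2.94, Retnla has no ob/+ values, and the pool of Il10 ranged from 0.04 to 0.1.

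Cd163, the scavenger receptor for haemoglobin and haptoglobin complexes, was 1.93-fold lower in ob/ob. Its sample intensities were 13.2, 12.01 and 12.13 on the ob/+ arrays and 6.12, 7 and 6.22 on the ob/ob arrays, and per-array values are given in this array order throughout. The pool, the same RNA on each array, read 11.77 to 13.5. Every ob/ob sample had a lower intensity than every ob/+ sample. The log2 fold change was -0.95 ± 0.10 (SE, n = 3 per group, limma adjusted p = 0.00613). It passed with any 1 array left out, at -1.02 to -0.87 (adjusted p up to 0.0301), and had -0.63 (adjusted p = 0.1) after quantile normalization.

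Lyve1, a hyaluronan receptor of macrophages along vessels and of lymphatic endothelium, fell from intensities of 1.79, 1.88 and 1.33 in ob/+ to 0.73, 0.8 and 0.51 in ob/ob. The groups did not overlap. Its log2 fold change was -1.20 ± 0.21 (SE, n = 3 per group, limma adjusted p = 0.0213), or 2.30-fold lower. Leaving out replicate 1 or 2 of ob/+ (adjusted p = 0.0808 and 0.065) or of ob/ob (0.0508 and 0.0522) ended this call, at log2 fold changes of -1.11 to -1.30.

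Lymphatic endothelium, which also makes Lyve1, was measured through 7 other genes. Ccl21a, a chemokine of lymphatic vessels, fell by 2.49 ± 0.35 on the log2 scale (SE), to an ob/ob intensity of 0.03 that is near the step, Mmrn1, a secreted multimerin, by 2.38 ± 0.46 and Reln, which encodes reelin, by 1.09 ± 0.17. Nrp2, a co-receptor for lymphatic growth factors, was higher (1.05 ± 0.13). Its 2 dimmer reporters had 0.70 ± 0.10 and 0.16 ± 0.08 (limma adjusted p = 0.0124 and 0.221). Prox1, the transcription factor that sets lymphatic identity, had a log2 fold change of -0.68 ± 0.18 (limma adjusted p = 0.0569), Pdpn -0.20 ± 0.08 and Flt4 -0.09 ± 0.06, and these did not pass. In all, 3 of the 7 were lower and 1 was higher, where 12.1% of all genes tested were lower and 12.5% higher. Their median log2 fold change was -0.68, against 0.004 over all genes tested. The summed intensity of the 7 was 5.2 to 5.66 in ob/+ and 5.75 to 6.65 in ob/ob. Without Nrp2, left out after its value was seen, it was 3.7 to 4.11 in ob/+ and 2.45 to 2.96 in ob/ob. The part of lymphatic vessels in the fall of Lyve1 was not tested. Of the 4 calls, that of Nrp2 passed with any 1 array left out. That of Reln was lost without ob/+ replicate 3 (adjusted p = 0.0595), that of Ccl21a without ob/+ replicate 1 or 3 (up to 0.0513), and that of Mmrn1 without any ob/+ array or ob/ob replicate 1 (up to 0.0908).

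Retnla encodes a secreted resistin-like protein, one of the most strongly induced products of mouse macrophages exposed to interleukin-4. On the ob/ob arrays its sample intensities were 11.25, 9.77 and 6.82, against 48.95, 55.21 and 52.73 for the ob/+ pool. The log2 ratios were -2.12, -2.50 and -2.95, so each ob/ob sample read 4.35-fold to 7.73-fold below the pool. Saturation of the pool signal was not tested, and with it these folds would be lower bounds. In the authors' deposited table the p-values for these 3 channel comparisons are 1.03e-20, 2.15e-16 and 1.83e-18. The sources used here do not name the test behind them. The table holds no value for either channel on the 3 ob/+ arrays, for a reason the sources used here do not give. The spread of Retnla between lean samples is therefore unknown and no difference between the groups was tested. By its mean pool intensity of 52.3 on the ob/ob arrays, Retnla was the 12th brightest of 39504 reporters. In total 11 reporters had values on the 3 ob/ob arrays and none on the 3 ob/+ arrays, and their median pool intensity was 51.8, against 0.123 over all reporters. The mean pool intensities of those 11 ran from 1.05 to 54.8. On the ob/+ arrays the highest pool intensity was 45.3 and the highest sample intensity 50.1. Over both channels, 25 intensities on the ob/+ arrays and 51 on the ob/ob arrays exceeded 48.

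The Retnla promoter is printed because it is the gene of the set with the lowest ratios and because its window holds the spacing of a STAT6 site, and the Chil3 promoter because Chil3 had the largest rise. RefSeq promoter windows (GRCm38.p6, 250 bases before to 50 after the start) were found for 6 of the 10 genes, 7 windows in all. Capitals mark the motifs TTCNNNNGAA, the spacing STAT6 prefers, and TTCNNNGAA, the spacing of other STAT proteins. Each motif reads the same on both strands, and they do not overlap here.
Retnla, chr16:48842359-48842658, plus strand: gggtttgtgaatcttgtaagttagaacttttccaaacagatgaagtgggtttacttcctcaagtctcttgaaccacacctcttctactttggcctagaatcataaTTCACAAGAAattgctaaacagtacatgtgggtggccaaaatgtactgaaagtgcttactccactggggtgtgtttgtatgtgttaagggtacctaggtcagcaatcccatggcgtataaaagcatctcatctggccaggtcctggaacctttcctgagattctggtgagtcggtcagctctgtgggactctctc
Chil3, chr3:106167515-106167814, minus strand: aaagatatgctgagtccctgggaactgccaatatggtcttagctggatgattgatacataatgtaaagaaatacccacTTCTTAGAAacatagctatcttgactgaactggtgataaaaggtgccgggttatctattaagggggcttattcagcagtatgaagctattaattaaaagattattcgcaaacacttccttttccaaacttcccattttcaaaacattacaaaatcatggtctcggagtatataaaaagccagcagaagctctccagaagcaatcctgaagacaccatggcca
TTCNNNNGAA occurs in 6.95% of the 32851 mouse promoter windows of this length and in 1 of the 6 genes, Retnla, starting at -145 from the start site. TTCNNNGAA occurs in 8.3% of the windows and in 1 of the 6 genes, Chil3, starting at -172. These matches describe the letters of the windows. The windows of Mrc1, Cd163, Stab1 and Folr2 held neither.

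Mrc1, the mannose receptor that takes up glycoproteins, was 2.16-fold higher in ob/ob. Its intensities were 3, 2.97 and 2.61 in ob/+ and 4.65, 8.13 and 6.08 in ob/ob, with the pool at 2.72 to 2.94. The lowest ob/ob sample exceeded the highest ob/+ sample. The log2 fold change was 1.11 ± 0.20 (SE, n = 3 per group, limma adjusted p = 0.0213). Mrc1 lost its call without any 1 ob/+ array (adjusted p = 0.071 without replicate 1, 0.0593 without replicate 2 and 0.0796 without replicate 3) or without ob/ob replicate 3 (0.0783), at log2 fold changes of 1.04 to 1.15.

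Stab1, which encodes the endocytic scavenger receptor stabilin-1, rose from 1.75, 1.26 and 1.26 in ob/+ to 2.65, 3.26 and 3.99 in ob/ob, or 2.31-fold. The groups lay apart, with the highest ob/+ intensity at 1.75 and the lowest ob/ob intensity at 2.65. Its log2 fold change of 1.21 ± 0.14 (SE, n = 3 per group, limma adjusted p = 0.00724) passed with any 1 array left out, at 1.11 to 1.31 (adjusted p up to 0.0317), and was 0.84 (adjusted p = 0.133) after quantile normalization.

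Folr2, the folate receptor of tissue macrophages, read 0.4, 0.53 and 0.41 in ob/+ and 0.61, 0.9 and 0.86 in ob/ob. No ob/ob sample fell within the ob/+ range. Folr2 was 1.87-fold higher, with a log2 fold change of 0.90 ± 0.18 (SE, n = 3 per group, limma adjusted p = 0.0312). Folr2 did not pass after removal of replicate 1 or 3 of ob/+ (adjusted p = 0.105 and 0.0999) or replicate 2 or 3 of ob/ob (0.0992 and 0.111), at log2 fold changes of 0.80 to 0.85.

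Clec10a, a galactose-binding lectin of macrophages and dendritic cells, was the brightest member with values on all 6 arrays, and 99.3% of reporters were dimmer. Its intensities were 17.43, 18.53 and 15.54 in ob/+ and 27.04, 31.88 and 37.69 in ob/ob, against a pool of 16.84 to 19.43. The lean samples were tightly grouped and the 3 ob/ob samples were spread above them. The rise was 1.78-fold (log2 0.83 ± 0.15, SE, n = 3 per group, limma adjusted p = 0.0219). It passed without ob/ob replicate 1 (adjusted p = 0.00574) and did not pass with any other array removed (0.0778, 0.0598 and 0.0827 for replicates 1 to 3 of ob/+, 0.0756 and 0.066 for replicates 2 and 3 of ob/ob), at log2 fold changes of 0.73 to 0.86.

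Chil3 encodes a chitinase-like protein that macrophages secrete after exposure to interleukin-4 and that neutrophils also carry. It had the largest change of the set. Intensities were 0.05, 0.05 and 0.06 in ob/+, near the step of 0.01, and 1, 0.36 and 0.38 in ob/ob. The first ob/ob sample was far above the other 2, and the lowest of them was still above every ob/+ sample. The difference was 11.1-fold (log2 3.47 ± 0.35, SE, n = 3 per group, limma adjusted p = 0.00574). Rounding of each intensity by up to 0.005 allows a log2 fold change of 3.01 to 3.95. With 1 array left out it was 3.10 to 3.68 and passed each time (adjusted p up to 0.0295), and after quantile normalization it was 2.22 (adjusted p = 0.0764).

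Because neutrophils carry Chil3, 6 neutrophil genes were read beside it. Ly6g, also on the neutrophil list, was not tested. S100a8, a calcium-binding protein of neutrophils and monocytes, rose 19.8-fold, and 5 did not pass (16.7% called, against 24.6% of all genes tested). S100a9, its partner, had a log2 fold change of -0.01 ± 0.32, the granule genes Elane -0.09 ± 0.08 and Mpo 0.06 ± 0.06, and the receptors Cxcr2 0.33 ± 0.16 and Csf3r 0.26 ± 0.07. Their summed intensity was 0.84 to 1.23 in ob/+ and 4.6 to 8.81 in ob/ob. Without S100a8, left out after its value was seen, it was 0.55 to 0.94 and 0.63 to 0.83. In all 4 of the 6 had a mean intensity under 0.1, and the part of neutrophils in the rise of Chil3 was not tested.

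Il10 was dim, at 0.05, 0.08 and 0.1 in ob/+ and 0.1, 0.15 and 0.18 in ob/ob. The groups touched at 0.1 on the intensity scale and did not overlap in the ratio to the pool. The pool itself read 0.04 to 0.1 on the 6 arrays, a 2.5-fold range of the same RNA. Its mean was 0.08 on the ob/+ arrays and 0.057 on the ob/ob arrays, which adds to the difference in the ratio. Il10 was 2.63-fold higher by ratio (log2 1.39 ± 0.31, SE, n = 3 per group, limma adjusted p = 0.0389), and rounding allows 1.01 to 1.79. The call held without ob/ob replicate 1 (adjusted p = 0.0172) and failed with any other array removed (0.114, 0.109 and 0.116 for replicates 1 to 3 of ob/+, 0.0578 and 0.126 for replicates 2 and 3 of ob/ob), at log2 fold changes of 1.11 to 1.42.

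Arg1, the arginase that turns arginine into ornithine and urea, read 0.17, 0.1 and 0.1 in ob/+ and 0.16, 0.16 and 0.23 in ob/ob. The groups overlapped in intensity. In the ratio to the pool they lay apart by less than rounding can shift, with the closest values at 0.28 and 0.30. The pool had a mean of 0.13 on the ob/+ arrays and 0.107 on the ob/ob arrays. Its log2 fold change of 0.90 ± 0.34 (SE, n = 3 per group) did not pass (limma adjusted p = 0.143), with a 95% interval of 0.03 to 1.77. Rounding allows 0.67 to 1.13. It passed among reporters above the median intensity (adjusted p = 0.0454), a filter that tests fewer genes.

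**Figure D2:**
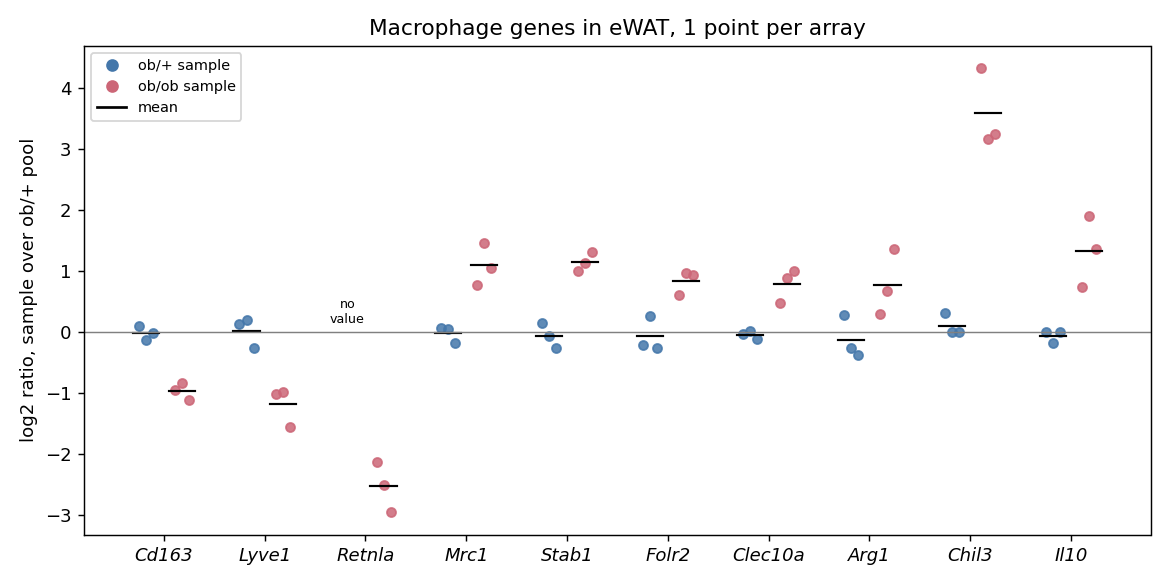
Log2 ratio of each sample to the ob/+ pool (vertical axis) for the 10 genes, 1 point per array (blue ob/+, red ob/ob, 3 each), with the mean of the points as a bar. Cd163, Lyve1 and Retnla lie below 0 in ob/ob, the other 7 above, and Retnla has no ob/+ value.

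Among the members that were higher, the changes of Il10, Stab1, Mrc1, Folr2 and Clec10a were not ordered beyond their error. Their 95% intervals all included log2 fold changes from 0.85 to 1.22. The interval of Chil3, 2.56 to 4.38, lay above that of Il10, 0.58 to 2.20. Within ob/ob, the sample with the most Chil3 was not the one with the most of the other rising genes. By the series matrix, ob/ob replicate 1 had the highest log2 ratio of Chil3 (4.32, against 3.17 and 3.25) and of Retnla (-2.12, against -2.50 and -2.95). The same sample had the lowest ratio of 6 of the 7 members that lay above the pool, all except Chil3. No test was made of this order.

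The change of each member was set beside 10 general macrophage genes of the same array. Of those 10, 8 were higher, none was lower and 2, Ptprc and Mertk, did not pass, where 12.5% of all genes tested were higher. Lyz2, lysozyme of myeloid cells, rose by 2.16 ± 0.13 on the log2 scale (SE), C1qa, a complement subunit, by 0.72 ± 0.06 and Adgre1, which encodes F4/80, by 2.70 ± 0.38. The count of 8 moved with single arrays. Removing replicates 1 to 3 of ob/+ in turn left 2, 5 and 2 higher, and removing those of ob/ob left 9, 4 and 3. Quantile normalization left 2. Lyz2 and C1qa passed with any 1 array left out, and Adgre1 reached a limma adjusted p of up to 0.0543. The mean log2 ratio of the 10, used as an index, was -0.06 to 0.03 in ob/+ and 0.94 to 1.54 in ob/ob, and it was lowest in the ob/ob sample with the most Chil3.

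Relative to this index, Cd163 was lower by -2.29 and Lyve1 by -2.54 on the log2 scale, with every ob/ob sample below every ob/+ sample. Folr2 (-0.44) and Clec10a (-0.51) had also lost ground to it in every ob/ob sample. Mrc1 (-0.23), Stab1 (-0.13) and Arg1 (-0.44) overlapped between the groups. With an index of Adgre1, Csf1r and Ptprc, Mrc1 (-0.56) and Arg1 (-0.77) did not overlap between the groups, and Stab1 (-0.46) did. With an index of C1qa, C1qb and C1qc, Mrc1 (-0.17), Stab1 (-0.08) and Arg1 (-0.39) all overlapped. Chil3 exceeded the first index by 2.13, and Il10 differed from it by 0.05. Il10 differed by -0.28 from the index of Adgre1, Csf1r and Ptprc, and by 0.11 from that of C1qa, C1qb and C1qc. With the first index, the two-sided exact permutation p was 0.1 for Cd163, Lyve1, Folr2, Clec10a and Chil3, the smallest that 3 samples against 3 allow. It was 0.2 to 0.9 for the other 4. Adjusted over the 9 members, the exact p of those 5 was 0.18, and a threshold of 0.05 cannot be reached with these sample numbers.

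**Figure D3:**
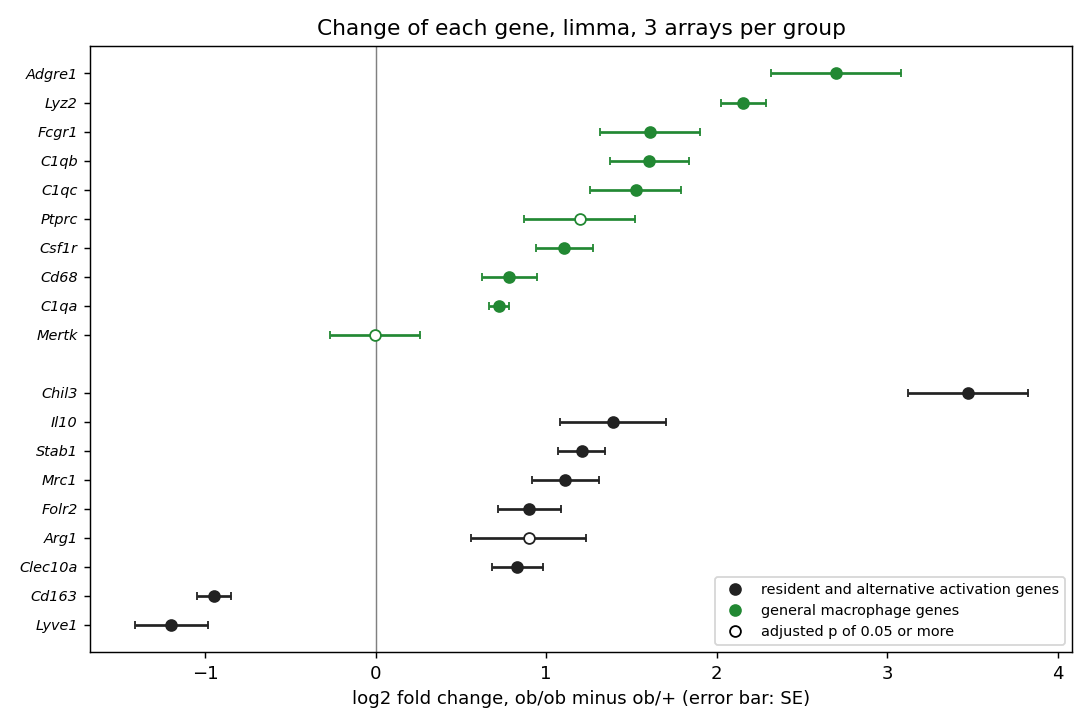
Log2 fold change, ob/ob minus ob/+ (horizontal axis, error bar SE, 3 arrays per group), of the 9 tested members (black) and of 10 general macrophage genes (green), with open symbols where the limma adjusted p is 0.05 or more. Cd163 and Lyve1 stand left of 0, and Mertk at 0 is the lowest of the general genes.

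**Figure D4:**
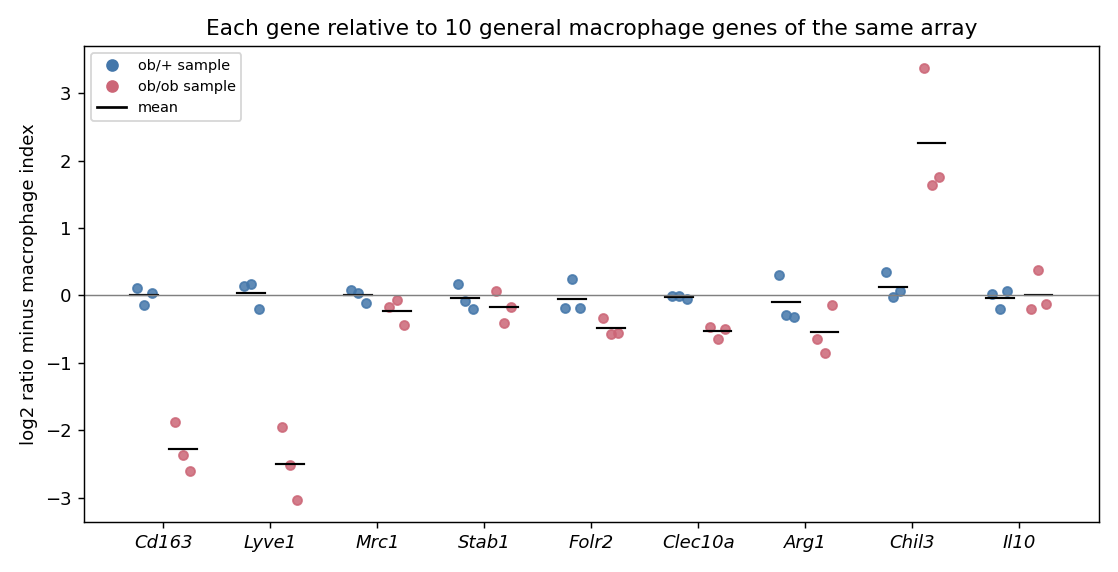
Log2 ratio of each member minus the mean log2 ratio of 10 general macrophage genes on the same array (vertical axis), 1 point per array (blue ob/+, red ob/ob) with the mean as a bar. Cd163 and Lyve1 lie at -1.88 or lower in ob/ob, and Chil3 at 1.63 or higher.

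Close relatives of the members were measured on the same arrays. Stab2, which encodes stabilin-2, was lower (log2 -0.62 ± 0.15, SE, limma adjusted p = 0.0496), a call lost without any 1 of the 6 arrays (up to 0.153), where Stab1 was higher. Mgl2, the sister lectin of Clec10a, had -0.21 ± 0.07 (adjusted p = 0.0858), and Folr1, the epithelial folate receptor, -1.18 ± 0.30 (0.0515). Mrc2, a collagen receptor, passed as higher, but its ob/+ intensity of 0.02 equals 2 steps and the size cannot be read. The same holds for Chil4, a near copy of Chil3, at an ob/+ intensity of 0.0133. The Chil4 call was lost without any array except ob/+ replicate 1 (up to 0.113), and whether the 2 reporters tell these genes apart was not tested. Chil1 had 0.08 ± 0.04 (adjusted p = 0.267).

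In the family of Retnla, Retn, the resistin of mouse adipocytes, was lower (-1.70 ± 0.38) and Retnlg, a relative found in blood cells, was lower (-0.46 ± 0.07), while Retnlb had 0.00 ± 0.02. The call of Retn was lost without any array except ob/ob replicate 1 (limma adjusted p up to 0.127) and that of Retnlg without replicate 3 of either group (up to 0.0538). Cd5l, a secreted macrophage protein, was higher (0.67 ± 0.10), lost without ob/ob replicate 3 (0.0531). Its ob/+ intensity of 0.0467 is near the step. Within arrays, Stab1 gained 1.83 on Stab2, Folr2 gained 2.08 on Folr1, Clec10a gained 1.05 on Mgl2 and Chil3 gained 3.40 on Chil1. Each of these pairs had the smallest exact permutation p that the design allows, 0.1, or 0.117 adjusted over 7 pairs. No difference is given for Chil4 and Mrc2, whose ob/+ levels lie at the step.

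Arginine can also be used by Arg2, the mitochondrial arginase, and by Nos2, which makes nitric oxide. Arg2 was lower in ob/ob (log2 -1.50 ± 0.24, SE), a call lost without replicate 2 of either group or ob/ob replicate 3 (limma adjusted p up to 0.0617). Within arrays Arg1 gained 2.40 on Arg2, with the exact p of 0.1. Nos2 had 0.37 ± 0.11 (adjusted p = 0.0846). Of 8 genes of arginine use, 1 was higher and 3 were lower, where 12.5% of all genes tested were higher and 12.1% lower. Ass1, which remakes arginine from citrulline, was higher (0.76 ± 0.08), and Asl (-0.43 ± 0.10) and Oat (-0.33 ± 0.07) were lower. The call of Ass1 held with any 1 array left out, and those of Asl and Oat were lost without any ob/+ array and, among others, without ob/ob replicate 2 (up to 0.141 and 0.0992).

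Signalling by interleukin-4 and interleukin-13 was followed through 24 genes other than the members. In ob/ob 5 rose and 1 fell while 18 did not pass, so that 6 of 24 were called, a share near the 24.6% of all genes, with a median log2 fold change of 0.001. Il1rn, the interleukin-1 receptor antagonist, rose 12.6-fold (log2 3.65 ± 0.36, SE), Egr2, a transcription factor of alternatively activated macrophages, 4.60-fold (2.20 ± 0.24) and Tgm2, a transglutaminase, 2.18-fold (1.13 ± 0.09), and these passed with any 1 array left out. After quantile normalization Il1rn passed (limma adjusted p = 0.0363), and Egr2 (0.0794) and Tgm2 (0.0846) did not. Il4ra, the shared receptor chain, was higher by 0.57 ± 0.10 and the kinase Jak1 by 0.58 ± 0.11, while Ccl17, a chemokine, was lower (-0.48 ± 0.08). Il4ra was lost without replicate 3 of either group or ob/ob replicate 2 (limma adjusted p up to 0.0735), Jak1 without any array except ob/ob replicate 2 (up to 0.0868) and Ccl17 without replicate 1 of either group or ob/+ replicate 3 (up to 0.0613). The dimmest of 3 Jak1 reporters had -0.004 ± 0.046. Stat6 had 0.65 ± 0.16 (adjusted p = 0.0513), and the cytokines Il4 and Il13 had -0.15 ± 0.10 and 1.58 ± 0.40 (adjusted p = 0.0541), Il13 from an ob/+ intensity of 0.0333. Stat6, Il4 and Il13 were picked as the defining genes of the pathway after their values were seen. Other genes of the list, picked in the same way, did not pass in either direction. Ppargc1b had -1.04 ± 0.30, Cish -0.87 ± 0.27, Klf4 -0.63 ± 0.21 and Il2rg 0.62 ± 0.17 (limma adjusted p = 0.0756, 0.0883, 0.1035 and 0.0611). Ear11, also on the list, was not tested.

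Both receptor chains of interleukin-10 were higher in ob/ob. Of 10 genes of its signalling other than Il10, 5 were higher and 1 was lower, where 12.5% of all genes tested were higher and 12.1% lower. Their median log2 fold change was 0.66. With 1 array left out, 0 to 5 were higher and 0 were lower, and quantile normalization left 0 higher and 0 lower. Il10ra, the ligand-binding chain, rose by 1.18 ± 0.23 (SE) and Il10rb, the shared chain, by 0.84 ± 0.20. A pair of STAT3 targets had 1.40 ± 0.25 (Nfil3) and 0.69 ± 0.10 (Sbno2), Nfil3 from an ob/+ intensity of 0.0433 that is near the step. Jak1 is given above, and Tyk2, the partner kinase, was lower (-0.39 ± 0.09). The calls of Il10ra, Il10rb and Nfil3 were lost without any array except ob/ob replicate 1 (limma adjusted p up to 0.0978, 0.14 and 0.0844), that of Sbno2 without ob/ob replicate 3 (0.0541) and that of Tyk2 without any 1 array (up to 0.119). The dimmer Il10rb reporter had 0.62 ± 0.28 (adjusted p = 0.204).

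Other genes of resident macrophages moved in both directions. Of 22, 5 rose, 3 fell and 14 did not pass, where 12.5% of all genes tested were higher and 12.1% lower. Their median log2 fold change was -0.07. Vsig4, a complement receptor of resident macrophages, rose 3.41-fold (log2 1.77 ± 0.08, SE) and Marco, a scavenger receptor, 2.44-fold (1.29 ± 0.19), while Fcgrt, the neonatal Fc receptor, was lower (-0.95 ± 0.10). The call of Marco was lost without ob/ob replicate 3 (limma adjusted p = 0.0577), and those of Vsig4 and Fcgrt held with any 1 array left out and were lost after quantile normalization (0.0524 and 0.152). With 1 array left out, 1 to 6 of the 22 were higher and 1 to 3 were lower. Timd4, the phosphatidylserine receptor of long-lived resident macrophages, had -0.81 ± 0.21 (adjusted p = 0.0561). A further 3 lectins, picked after their values were seen, did not pass. Cd209d had -1.05 ± 0.30, Cd209f -1.30 ± 0.28 with values on 2 ob/+ arrays, and Cd209g -0.75 ± 0.30 (adjusted p = 0.0741, 0.05001 and 0.172). Timd4 and Cd209g were dim, at mean ob/ob intensities of 0.073 and 0.053. In the other direction, Pf4 had 0.90 ± 0.28 and Selenop 0.41 ± 0.11, and these did not pass either (limma adjusted p = 0.0886 and 0.0574).

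Genes of lipid-associated macrophages, the cells that gather around dying adipocytes in obesity, were higher in ob/ob. Of 9 tested, 9 were higher and none was lower, where 12.5% of all genes tested were higher. Lpl, also on the list, was not tested. The median log2 fold change was 2.97, against 0.90 over the 9 tested members. With 1 array left out, 7 to 9 were higher. Cd9 passed in 1 of these removals (limma adjusted p up to 0.15) and Spp1 in 2 (up to 0.0865). Mmp12 rose by 4.34 ± 0.30 on the log2 scale (SE), Fabp5 by 2.00 ± 0.10 and Ctsd by 1.77 ± 0.13, and these 3 calls held with any 1 array left out. After quantile normalization 4 of the 9 passed, with Mmp12 at a limma adjusted p of 0.0448, Fabp5 at 0.0504 and Ctsd at 0.0656.

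Cells other than macrophages that can make these transcripts were read from their own markers. Of 4 eosinophil genes, 0 passed in limma (0 at an unadjusted p under 0.05), and of 6 T cell genes, another source of Il10, 0 passed (1 at an unadjusted p under 0.05). Siglecf, also on the eosinophil list, and Trac, also on the T cell list, were not tested. Of those T cell genes, 4 had a mean intensity under 0.1, where a change is hard to read. Among the eosinophil genes, mean ob/+ intensities were 0.13 for Epx, 0.107 for Prg2 and 0.193 for Il5ra, against 0.96 for Ccr3. Summed intensity was 1.12 to 1.63 in ob/+ and 0.95 to 1.29 in ob/ob for eosinophils, and 1.39 to 2.01 and 1.58 to 1.74 for T cells. Of 7 blood endothelial genes, 0 passed (1 at an unadjusted p under 0.05), with sums of 24.7 to 30.8 in ob/+ and 21.02 to 25.9 in ob/ob.

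Of 7 dendritic cell genes, Flt3 was higher (log2 0.76 ± 0.12, SE) and Zbtb46 lower (-0.31 ± 0.07), 5 did not pass, and 5 had a mean intensity under 0.1. Neither call held with each array left out (limma adjusted p up to 0.0654 without replicate 3 of either group or ob/+ replicate 2 for Flt3, and up to 0.122 without any array except ob/+ replicate 3 for Zbtb46). The other 2 Zbtb46 reporters had -0.06 ± 0.11 and -0.005 ± 0.086 (adjusted p = 0.751 and 1.0). Of 5 mast cell genes, Cma1 (-0.59 ± 0.04) and Tpsb2 (-0.34 ± 0.04) were lower. Of 6 genes of group 2 innate lymphoid cells, a source of interleukin-13, Areg was higher (2.02 ± 0.45) and Gata3 lower (-1.97 ± 0.27). Areg was lost without any array except ob/ob replicate 1 (up to 0.127) and Gata3 without ob/ob replicate 3 (0.0536). Of 5 adipocyte genes, Adipoq, the adipokine adiponectin (-1.26 ± 0.22), Fabp4, a fatty acid carrier (-0.84 ± 0.14), and Slc2a4, a glucose transporter (-0.86 ± 0.21), were lower and Lep was higher, with sums of 80.8 to 88.0 in ob/+ and 44.7 to 57.3 in ob/ob. None of those 3 falls passed without any 1 ob/+ array, and each was lost in 5 of 6 removals (limma adjusted p up to 0.07, 0.0683 and 0.142). Cidec, also on the adipocyte list, was not tested. The share called was 28.6% for dendritic cell, 40% for mast cell, 33.3% for group 2 innate lymphoid cell and 80% for adipocyte genes. Over all genes tested it was 24.6%. The part of these cells in the members' values was not tested.

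Across the 6 arrays, the genes whose log2 ratios followed Chil3 most closely, of 16361 with a mean intensity above 0.1, were Sgo2a (Pearson r = 0.9985), Copz1 (0.9985) and Agpat5 (0.9978). Their log2 fold changes were 1.03, 0.31 and 0.47. Those closest to Lyve1 were Fndc1 (r = 0.9991), Dtna (0.9971) and Rpap2 (0.9936), with -1.02, -0.86 and -0.49. A difference between the 2 groups alone makes such correlations high. There were 838 genes with r above 0.95 to Chil3 and 299 to Lyve1.

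**Figure D5:**
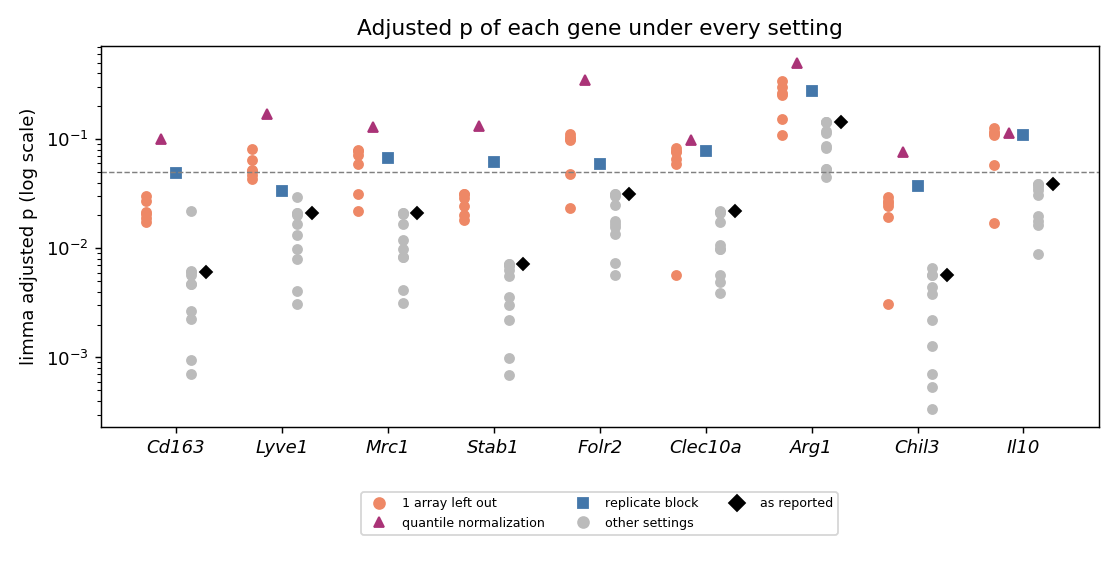
Limma adjusted p (vertical axis, log scale, dashed line at 0.05) of the 9 tested members as reported (black diamonds), with 1 array left out (orange), after quantile normalization (purple triangles), with the replicate number as a block (blue squares) and under the other settings (grey). Cd163, Stab1 and Chil3 stay under 0.05 with any 1 array left out, and all 9 lie above it after quantile normalization.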

How the data were processed

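Total RNA was extracted with Trizol and amplified in 2 rounds from 100 ng, per the labels' protocols, and the submitters' processing notes name Agilent Feature Extraction 8.5.1.1 for reading the 6 arrays. For 39507 reporters, the authors deposited a linear intensity for each channel, with log2 ratios whose median on each array is 0. How they were normalized is not given in the sources used here. They also deposited a p-value per reporter and array for its 2 channels, and a matrix of log10 ratios, per the file headers, which equals the intensity ratios within 0.02 on the log2 scale at 100% of reporters. The table's sample numbers are not the labels' replicate numbers, so its columns were assigned to groups, and analyses by replicate used the matrix. The table writes wt for the controls that the labels call ob/+. The labels were followed where the design text names another tissue and mutant. No column of sample values was left unassigned (0). No genome build is named, and RefSeq GRCm38.p6 tables served for symbols and promoters.

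Log2 ratios of sample to pool were tested in R 4.3.3 by limma 3.58.1 (lmFit, eBayes), ob/ob minus ob/+, two-sided, over 39407 reporters with values on 2 or more arrays per group. P-values were adjusted by Benjamini-Hochberg over reporters, and the brightest reporter stood for each gene. The prior degrees of freedom were 0.86. On simulated data, 81 of 100 reporters changed 2-fold and 95 of 100 changed 4-fold were recovered among 39226, with 10 false calls. In the real data 24.6% of genes tested were called, a far larger share than was changed in the simulation. The log2 ratios also spread more on the ob/ob arrays (SD 0.574 to 0.63) than on the ob/+ arrays (0.21 to 0.234). Whether the simulated figures hold under these conditions was not tested, and they are not error rates of the calls given here. Recovery was not split by brightness. Values relative to the macrophage index and to relatives were compared by exact permutation over samples. From each gene list the text names the called genes, or the 3 of lowest p where over 6 were called, and close relatives of the members. The members, lists and tests were chosen with earlier results of these data known. Alternatives covered normalization, the sample channel alone, dim reporters, the pseudocount, the prior, array weights, a replicate block, each array left out and the choice of reporter. Figures were drawn in matplotlib 3.10.9 under Python 3.11.15. The number of arrays limits precision.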

Additional observations from a re-analysis of the deposited data

How the results depend on the processing

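Over 18 other settings, the 9 tested members gave 161 values. Their direction was the same in all 161, and 125 stayed on the same side of the threshold, while 35 calls were lost and 1 (Arg1, without reporters below the median intensity) was gained. Il10 has no value under that filter. Quantile normalization left 311 genes higher and 245 lower, and 0 members higher and 0 lower. It gives all arrays 1 distribution, while the SD of the log2 ratios was 0.21 to 0.234 on the ob/+ arrays and 0.574 to 0.63 on the ob/ob arrays. With the sample channel alone 3283 genes were higher and 1605 lower (67.2% of calls higher, against 50.7%), the median over all genes was 0.13, and the 8 member calls stayed. Leaving out 1 array gave 1526 to 2880 genes higher, 1518 to 2617 lower, 2 to 6 members higher and 1 to 2 lower. The labels do not say that shared replicate numbers pair samples, and deviations of same-numbered samples correlated at -0.062 to 0.062. With the replicate block 1292 genes were higher and 1292 lower, with 1 member higher (Chil3) and 2 lower. Relative to an index of Adgre1, Csf1r and Ptprc, Il10 had -0.28 in place of 0.05, and Mrc1 and Arg1 no longer overlapped between the groups. Relative to an index of C1qa, C1qb and C1qc, Il10 had 0.11, and Mrc1 and Arg1 overlapped. Of 62 called genes of the lists, 22 passed with any 1 array left out. Restriction to reporters brighter than 0.1 on average, chosen after seeing the data, kept the same 8 member calls. Where settings changed a call, the cause was not tested. Signal near the step of 0.01 limits Il10, Arg1 and the ob/+ level of Chil3.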
